A study of Rattus norvegicus with 9 samples.

Results

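The bile acid synthesis enzymes described here are the products of 10 genes that turn cholesterol into conjugated bile acids: Cyp7a1, Cyp7b1, Cyp8b1, Cyp27a1, Hsd3b7, Akr1d1, Amacr, Acox2, Slc27a5 and Baat. They were chosen by name as enzymes of synthesis and conjugation, with earlier results of these data known, and all 10 were found among the 14497 genes that the array annotation names through a probe set of 1 gene. Each had 1 such probe set. Affymetrix Rat ST 1.0 arrays were hybridised with RNA of F344 rat liver cells, in 3 groups of 3 preparations that the labels call biological replicates. The first group was adult hepatocytes, released from the livers of rats aged 5 to 6 weeks by perfusion with collagenase in a 2-step digestion. The other groups were cells of fetal liver at embryonic day 19, dissociated with collagenase and purified magnetically with antibodies to leucine aminopeptidase (LAP), a surface marker of hepatic cells, and to OC.2, a ductal marker. The first fetal group is titled LAP+/OC.2- (called OC.2- cells here) and the other LAP+/OC.2+ (OC.2+ cells). The labels used here name no genotype, treatment or number of pooled animals for any group. These labels conflict in places: the protocol describes the same selection, for cells with both antigens, for either fetal group, and LAP-OC2+ is written in the description field of the OC.2+ arrays. Group membership was therefore taken from titles and cell type labels.

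Bile acids are the main route by which the liver disposes of cholesterol, and they emulsify dietary fat in the gut. In the classic route, cholesterol is hydroxylated on its ring by CYP7A1, the step that sets the rate, and in the alternative (acidic) route the side chain is oxidised first by the mitochondrial enzyme CYP27A1 and the ring next by CYP7B1. Both routes then share the ring-modifying enzymes HSD3B7 and AKR1D1, while CYP8B1 adds the hydroxyl group that distinguishes cholic acid from chenodeoxycholic acid. The side chain is shortened in peroxisomes, where AMACR flips a methyl group's configuration and ACOX2 carries out the oxidation, and SLC27A5 and BAAT couple the product to glycine or taurine. In the liver this pathway belongs to hepatocytes, and in rodents Cyp7a1 activity is known to rise around and after birth.

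On all 9 arrays, the deposited values were already normalized, and levels below are log2 intensities, means ± SD (n = 3). The number of arrays limits the precision. Nothing in the labels says that the preparations came from separate animals, so p-values measure the spread between these preparations. Median log2 intensity over all rows was 6.31 to 6.49 per array, and no detection call is available, so a gene near that range cannot be called expressed or absent. Median intensity was 79.5 to 81.0 on adult, 86.5 to 89.7 on OC.2- and 87.7 to 88.9 on OC.2+ arrays. Differences were tested with limma across all 14497 genes, and "rose", "fell", "higher" and "lower" are used at adjusted p under 0.05. Markers of other liver and blood cell types differed between the groups. The summed linear intensity of 9 erythroid markers was 843 to 877 on adult, 11953 to 14593 on OC.2- and 31586 to 32200 on OC.2+ arrays. That of 11 granulocyte markers was 678 to 751, 814 to 888 and 23329 to 27115 in the same order. The 16 plasma protein genes used as hepatocyte markers summed to 142712 to 154568 on adult, 119777 to 128812 on OC.2- and 40709 to 45461 on OC.2+ arrays. Endothelial markers (6 measured) summed to 660 to 862, 3286 to 4416 and 563 to 575. Stellate cell markers (8) summed to 870 to 948, 2535 to 2940 and 927 to 975, and macrophage markers (8) to 868 to 955, 1776 to 2352 and 1469 to 1827. Ductal markers (6) summed to 631 to 703, 660 to 679 and 554 to 593, and these genes did not move together. Krt19, a ductal keratin, was at 5.56 to 5.77 on adult, 6.51 to 6.62 on OC.2- and 5.85 to 6.10 on OC.2+ arrays, higher than in adult hepatocytes by 1.90-fold in OC.2- and 1.29-fold in OC.2+ cells. Prom1, a marker of ductal and progenitor cells, was higher by 2.09-fold and 4.07-fold, at up to 7.67 on OC.2+ arrays. Cdh1 was lower in both fetal groups. Epcam was at 5.92 or less on all arrays and lower in OC.2+ cells, and Krt7 and Spp1 were not called. No marker was at 0 on any array, but a value above 0 does not show detection. S100a8, a granulocyte marker, was at 3.97 to 4.30 on adult arrays, under the array medians. In such bulk samples, fewer hepatocytes and less RNA per hepatocyte cannot be told apart.

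Because most of these genes moved together, their promoters were searched for the letters of 4 motifs. RefSeq's promoter table (build GRCr8) held 7 of the 10 genes: Cyp8b1, Cyp27a1, Hsd3b7, Amacr, Acox2, Slc27a5 and Baat. Cyp7a1, Cyp7b1 and Akr1d1 were not in it. In the 250 bases before the gene start, on either strand, TCAAGG (a core bound by LRH-1, the product of Nr5a2) lay in 2 of 7 (Amacr and Acox2) and in 12.6% of all 33469 promoters. CAAAGTC (a core bound by HNF4) lay in 1 of 7 (Baat) and in 3.95% of all. GTTAAT (part of the HNF1 motif) lay in 0 of 7 and in 6.45% of all, and TATAAA (the TATA box) in 0 of 7 and in 12.9% of all. No match overlapped another, and these are letter matches, not measured binding. The promoters of Cyp8b1 and Acox2 are shown because these genes had the most unlike patterns in the fetal groups, and that of Baat because it holds the HNF4 letters. Each runs 5′ to 3′ on the gene's strand, with matches in capitals. Cyp8b1 (chr8:130457593-130457842, minus strand) has no match, Acox2 (chr15:19090705-19090954, plus strand) has TCAAGG from 39 to 34 bases before the start, and Baat (chr5:68656138-68656387, minus strand) has CAAAGTC from 90 to 84 bases before it.
Cyp8b1: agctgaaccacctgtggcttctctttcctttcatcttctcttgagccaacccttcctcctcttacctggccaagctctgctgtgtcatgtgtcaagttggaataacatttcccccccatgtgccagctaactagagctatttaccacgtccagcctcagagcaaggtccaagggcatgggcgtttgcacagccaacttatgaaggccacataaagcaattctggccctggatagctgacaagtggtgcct
Acox2: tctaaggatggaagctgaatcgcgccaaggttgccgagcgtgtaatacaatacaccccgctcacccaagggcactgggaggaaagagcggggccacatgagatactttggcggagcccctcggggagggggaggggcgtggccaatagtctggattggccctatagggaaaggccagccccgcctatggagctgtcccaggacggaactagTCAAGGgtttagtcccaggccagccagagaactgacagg
Baat: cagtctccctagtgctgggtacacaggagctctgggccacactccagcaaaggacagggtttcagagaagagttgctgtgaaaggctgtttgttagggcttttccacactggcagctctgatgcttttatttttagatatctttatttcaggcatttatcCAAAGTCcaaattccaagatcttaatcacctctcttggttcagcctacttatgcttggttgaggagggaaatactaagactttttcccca

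The first comparison asked how the OC.2- fetal cells differ from adult hepatocytes. Of the 10 synthesis genes, 9 fell in the OC.2- cells and 1, Cyp7b1, rose. Among all genes, 20.9% were called lower and 23.7% higher in this comparison (limma, adjusted p under 0.05), and 44.5% were called in either direction. The split of all calls depended on the scaling, with 53.1% of called genes higher on the deposited values and 38.1% after median centring. The median log2 difference of the 10 genes was -2.87, against 0.07 for all genes. At least 4-fold lower were 8 of the 10, and 2.03% of all genes met that limit and the threshold. The arrays of the groups did not overlap for any of the 10, as for 51.4% of all genes. The steepest falls were those of Cyp8b1 (14.2-fold, 95% interval 12.4 to 16.2) and Slc27a5 (14.0-fold, 95% interval 12.4 to 15.9), and the smallest that of Acox2 (1.97-fold, 95% interval 1.69 to 2.30). The OC.2- levels of Cyp8b1 and Slc27a5 were close above the array medians, so their folds can be understated. On the same arrays, the 16 plasma protein genes had a median log2 difference of -0.24, with 8 lower, 1 higher and 7 not called, and ran from -1.08 (Vtn) to 0.69 (Apoa1). Albumin differed by 0.02 ± 0.08 (SE, limma adjusted p = 0.855). All 9 erythroid, all 6 endothelial, 7 of 8 stellate, 6 of 8 macrophage and 6 of 11 granulocyte markers rose in OC.2- cells, and their part in the falls was not tested.

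The second comparison set the OC.2+ cells against adult hepatocytes. Of the synthesis genes, 9 of 10 fell, and Cyp7b1 was not called, except as higher when arrays were centred on plasma protein genes. The count higher was 0 of 10 in limma, also at an unadjusted p under 0.05. Among all genes, 23.4% were called lower, 32.0% higher and 55.4% in either direction. The median log2 difference was -3.99 for the 10 genes and 0.11 for all genes. All 9 that fell were at least 4-fold lower, as were 5.45% of all genes, and their falls ran from 12.1-fold (Hsd3b7) to 32.8-fold (Akr1d1). In OC.2+ cells Akr1d1, Cyp8b1, Cyp27a1, Amacr and Acox2 were near the array medians, and Cyp7a1, Slc27a5 and Baat were under them. Their folds can be understated, so the order of the falls is not settled. The arrays did not overlap for 9 of the 10, against 62.2% of all genes. All 16 plasma protein genes fell too, with a median log2 difference of -2.63. All 9 erythroid and all 11 granulocyte markers rose (medians 4.58 and 4.55), and their part in the falls was not tested.

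The third comparison set the OC.2+ against the OC.2- cells. Again 9 of the 10 genes fell, 0 rose (limma, also 0 at an unadjusted p under 0.05) and Cyp8b1 was not called, except after centring arrays on plasma protein genes, where 2 were lower and 8 higher. Of all genes, 18.2% were lower, 20.3% higher and 38.5% called in either direction. The median log2 difference was -1.10 for the 10 genes and 0.04 for all genes. At least 4-fold lower were 2 of the 10, Acox2 at 8.08-fold (95% interval 6.92 to 9.44) and Akr1d1 at 6.94-fold (95% interval 5.49 to 8.76), and 2.19% of all genes. The arrays did not overlap for 9 of the 10, against 46.5% of all genes. All 16 plasma protein genes fell as well, with a median log2 difference of -2.45, while all 9 erythroid and all 11 granulocyte markers rose (medians 1.72 and 4.31). All 6 endothelial and all 8 stellate markers fell (medians -2.37 and -0.77). The part of these cell types in the fall of the synthesis genes was not tested. The comparisons share groups, so their values for a gene are not independent.

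**Figure D1:**
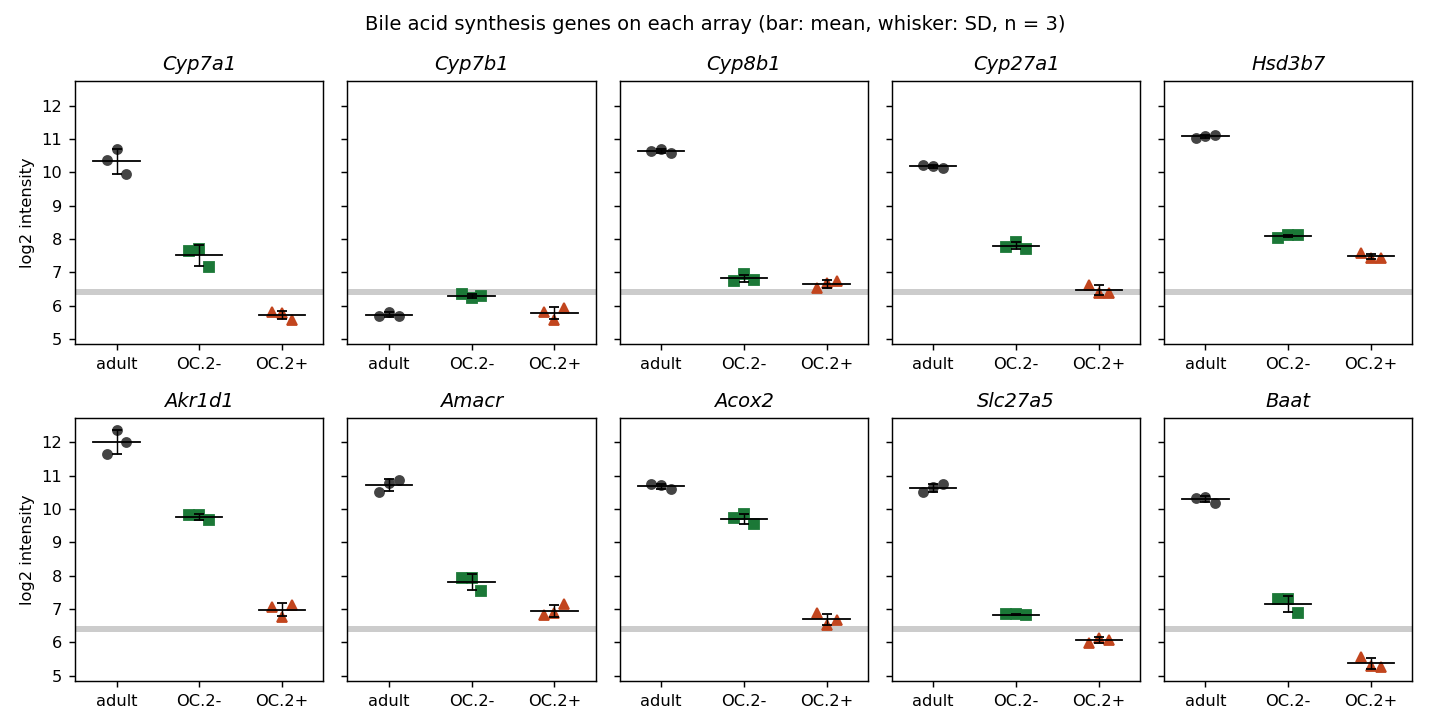
Log2 intensity (y axis) of each of the 10 genes on the 3 adult, 3 OC.2- and 3 OC.2+ arrays, with group means (bars) and SDs (whiskers); the grey band spans the medians of the 9 arrays, 6.31 to 6.49. Adult arrays were highest for 9 genes, and for Cyp7b1 the OC.2- arrays were, at 6.24 to 6.36.

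Of the genes of the first steps, Cyp7a1 and Cyp27a1 fell in OC.2- cells and Cyp7b1 rose. Cyp7a1, the rate-setting enzyme of the classic route, was at 10.36, 10.69 and 9.95 on the adult arrays, at 7.65, 7.71 and 7.16 on the OC.2- arrays and at 5.81, 5.78 and 5.58 on the OC.2+ arrays. The 3 groups did not overlap, and the OC.2+ values lay under the medians of the arrays. Its adult arrays, with an SD of 0.37, were spread as widely as those of any of the 10 genes. Cyp7a1 was 7.10-fold lower in OC.2- cells than in adult hepatocytes (95% interval 5.44 to 9.26, limma adjusted p = 3.46e-08). In OC.2+ cells it was 24.4-fold lower than in adult hepatocytes (95% interval 18.7 to 31.8, limma adjusted p = 9.67e-11) and 3.43-fold lower than in OC.2- cells (95% interval 2.63 to 4.48, limma adjusted p = 2.78e-06).

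Cyp27a1, the mitochondrial sterol 27-hydroxylase that opens the alternative route, was at 10.23, 10.19 and 10.12 in adult hepatocytes, 7.77, 7.92 and 7.70 in OC.2- cells and 6.63, 6.37 and 6.37 in OC.2+ cells. Its order was the same as that of Cyp7a1, again without overlap. It was 5.20-fold lower in OC.2- cells than in adult hepatocytes (95% interval 4.52 to 5.99) and a further 2.53-fold lower in OC.2+ cells (95% interval 2.20 to 2.92). Against adult hepatocytes the OC.2+ cells were 13.2-fold lower (limma adjusted p = 2.08e-12).

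Cyp7b1, the oxysterol 7-alpha hydroxylase of the alternative route, did not follow the others. It was at 5.69, 5.81 and 5.70 in adult hepatocytes, 6.36, 6.24 and 6.30 in OC.2- cells and 5.80, 5.58 and 5.93 in OC.2+ cells. All 9 values were within or under the range of the array medians, so whether the gene was expressed in any group is not settled by these arrays, and its folds can be understated. The OC.2- arrays lay above both other groups, which overlapped. Cyp7b1 was 1.48-fold higher in OC.2- cells than in adult hepatocytes (95% interval 1.29 to 1.71, limma adjusted p = 0.00025). It was 1.45-fold lower in OC.2+ relative to OC.2- cells (95% interval 1.26 to 1.67, limma adjusted p = 0.00043). Between OC.2+ cells and adult hepatocytes the log2 difference was 0.04 ± 0.09 (SE, 95% interval -0.17 to 0.24, limma adjusted p = 0.764).

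The balance of these hydroxylases was read as a log2 ratio of signals within each array, which does not give the level of either gene. Because Cyp7b1 was within or under the range of the array medians on all arrays, the ratio mostly follows Cyp7a1. It cannot show whether expression of these genes changed unequally. The ratio of Cyp7b1 to Cyp7a1 was -4.67, -4.88 and -4.25 on adult arrays, -1.29, -1.47 and -0.85 on OC.2- arrays and -0.01, -0.20 and 0.35 on OC.2+ arrays. The groups did not overlap. Since Cyp7b1 was dim throughout and Cyp7a1 was dim in OC.2+ cells, the sizes can be misstated. The ratio differed by 3.40 between OC.2- cells and adult hepatocytes, by 4.64 between OC.2+ cells and adult hepatocytes and by 1.25 between the fetal groups. Each difference had an exact 2-sided permutation p of 0.1, the smallest that 3 against 3 arrays allow (0.12 after Benjamini-Hochberg adjustment over 6 ratio tests), so the design cannot reach 0.05.

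Among the ring-modifying enzymes, Hsd3b7, the sterol dehydrogenase common to both routes, was at 11.02, 11.09 and 11.12 in adult hepatocytes, 8.04, 8.11 and 8.11 in OC.2- cells and 7.57, 7.42 and 7.44 in OC.2+ cells. Most of its distance lay between adult and fetal cells. It was 7.96-fold lower in OC.2- cells than in adult hepatocytes (95% interval 7.11 to 8.90, limma adjusted p = 6.01e-12) and 1.53-fold lower in OC.2+ relative to OC.2- cells (95% interval 1.36 to 1.71, limma adjusted p = 1.94e-05).

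Cyp8b1, the sterol 12-alpha hydroxylase needed for cholic acid, was at 10.64, 10.71 and 10.58 on the adult arrays. On the OC.2- arrays it was at 6.73, 6.94 and 6.78 and on the OC.2+ arrays at 6.52, 6.68 and 6.75. The fetal groups overlapped, and both were close above the array medians, where intensities can understate a fold. OC.2+ cells were 15.9-fold lower than adult hepatocytes (95% interval 13.9 to 18.1, limma adjusted p = 6.61e-13). Between OC.2+ and OC.2- cells the log2 difference was -0.17 ± 0.09 (SE, 95% interval -0.36 to 0.02, limma adjusted p = 0.174), an interval that does not show equal levels.

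Akr1d1, the steroid 5-beta reductase that gives bile acids their bent ring, was at 11.64, 12.38 and 12.01 in adult hepatocytes, 9.82, 9.83 and 9.66 in OC.2- cells and 7.06, 6.75 and 7.11 in OC.2+ cells. It fell by 2.24 ± 0.16 (SE) on the log2 scale from adult hepatocytes to OC.2- cells and by 2.79 ± 0.16 from OC.2- to OC.2+ cells, and the difference between these steps was not tested. It was 4.73-fold lower in OC.2- cells than in adult hepatocytes (limma adjusted p = 9.36e-08).

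Of the side-chain enzymes, Amacr, the racemase that prepares the side chain for oxidation, was at 10.51, 10.79 and 10.87 in adult hepatocytes, 7.94, 7.94 and 7.54 in OC.2- cells and 6.82, 6.87 and 7.16 in OC.2+ cells. It was 7.56-fold lower in OC.2- cells than in adult hepatocytes (95% interval 6.18 to 9.25) and 1.81-fold lower in OC.2+ relative to OC.2- cells (95% interval 1.48 to 2.21, limma adjusted p = 0.000171). Acox2, the branched-chain acyl-CoA oxidase of the next step, had another shape. It was at 10.74, 10.72 and 10.60 in adult hepatocytes and still at 9.74, 9.84 and 9.55 in OC.2- cells, but at 6.87, 6.53 and 6.67 in OC.2+ cells. Its OC.2- arrays were near the adult arrays and its OC.2+ arrays near the array medians. The fall in OC.2- cells against adult hepatocytes had a limma adjusted p of 4.99e-06, and that in OC.2+ against OC.2- cells one of 2.04e-10.

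For conjugation, Slc27a5, the bile acyl-CoA synthetase that activates bile acids, was at 10.51, 10.67 and 10.74 in adult hepatocytes, 6.84, 6.85 and 6.81 in OC.2- cells and 5.98, 6.14 and 6.06 in OC.2+ cells. The OC.2- arrays were the closest set of replicates for any of the 10 genes (SD 0.02). OC.2+ cells were 1.71-fold lower than OC.2- cells (95% interval 1.51 to 1.93, limma adjusted p = 5.24e-06). Baat, which attaches taurine or glycine, was at 10.34, 10.35 and 10.19, at 7.30, 7.30 and 6.89 and at 5.56, 5.28 and 5.27 in the same order of groups. It was 8.76-fold lower in OC.2- cells than in adult hepatocytes (95% interval 7.30 to 10.5) and 3.47-fold lower in OC.2+ relative to OC.2- cells (95% interval 2.89 to 4.17).

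The conjugation pair was read in the same way. The log2 ratio of Baat to Slc27a5 within an array was -0.17, -0.33 and -0.55 on adult arrays, 0.46, 0.45 and 0.08 on OC.2- arrays and -0.42, -0.87 and -0.80 on OC.2+ arrays. OC.2- arrays lay above both other groups. The difference was 0.68 between OC.2- cells and adult hepatocytes and -1.02 between OC.2+ and OC.2- cells, each with an exact 2-sided permutation p of 0.1 (0.12 adjusted). Between OC.2+ cells and adult hepatocytes, whose arrays overlapped, it was -0.35 (exact permutation p = 0.2, adjusted 0.2). Both genes were under the array medians in OC.2+ cells, and Slc27a5 was close above them in OC.2- cells. The sizes of these differences can therefore be misstated.

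**Figure D2:**
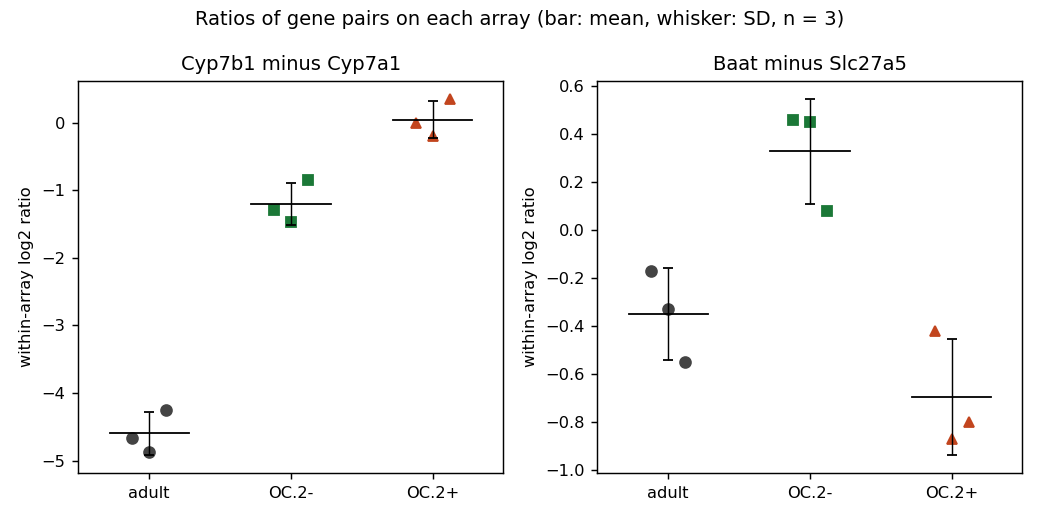
Within-array log2 ratios (y axis) of Cyp7b1 to Cyp7a1 (left) and of Baat to Slc27a5 (right) on each array, by group, with means (bars) and SDs (whiskers). The left ratio was lowest on adult arrays (-4.88 to -4.25) and highest on OC.2+ arrays (-0.20 to 0.35), and the right ratio was highest on OC.2- arrays (0.08 to 0.46).

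The genes differed in how much of their total distance the OC.2- cells already showed. Taking the log2 fall from adult hepatocytes to OC.2+ cells as the whole, the part present in OC.2- cells was 95.8% for Cyp8b1, 83.1% for both Hsd3b7 and Slc27a5, and 77.4% for Amacr. It was 64.0% for Cyp27a1, 63.5% for Baat and 61.4% for Cyp7a1, and 44.5% for Akr1d1 and 24.5% for Acox2. These shares are descriptions without a test, and they depend on how near the array's lower limit each OC.2+ value lay. The shape of Cyp8b1, low in both fetal groups, and that of Acox2, high in OC.2- and low in OC.2+ cells, stand at the ends.

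**Figure D3:**
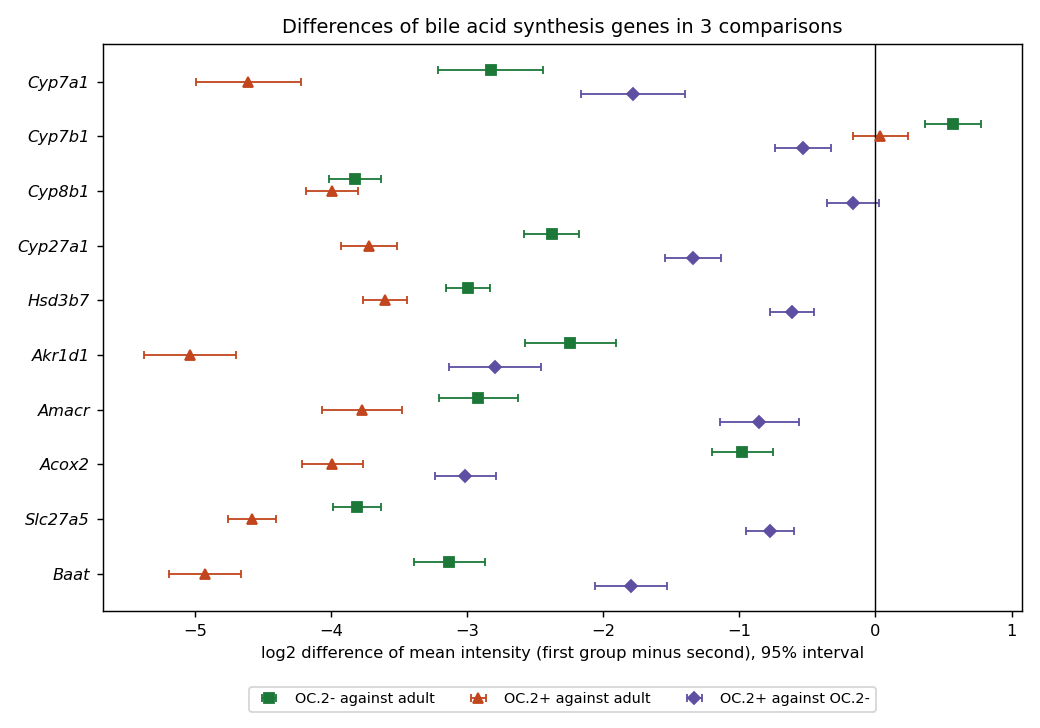
Log2 differences (x axis) with 95% intervals of the 10 genes (rows) for OC.2- cells against adult hepatocytes (squares), OC.2+ cells against adult hepatocytes (triangles) and OC.2+ against OC.2- cells (diamonds). Squares and triangles nearly coincide for Cyp8b1 (-3.83 and -3.99) and lie far apart for Acox2 (-0.98 and -3.99).

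The change of the synthesis genes was also set against that of the plasma protein genes on the same arrays. When each array was shifted so that the mean of the 16 plasma protein genes was equal, the 9 falls in OC.2- cells against adult hepatocytes were still called, at 1.64-fold (Acox2) to 11.8-fold (Cyp8b1), where 13% of all genes were called lower and 59.6% higher. For OC.2+ cells against adult hepatocytes, 9 falls also remained on that scale, from 2.29-fold (Hsd3b7) to 6.18-fold (Akr1d1), where 3.46% of all genes were called lower and 95.2% higher around a median of 2.51. Between the fetal groups only Acox2 (1.83-fold, limma adjusted p = 1.06e-07) and Akr1d1 (1.57-fold, limma adjusted p = 0.000539) were still lower in OC.2+ cells, and the other 8 genes were higher. That scale raised the median of all genes to 2.18 in this comparison and called 97.5% of them higher and 1.39% lower, so it shows only that the log2 differences of 8 genes lay above the mean of the plasma protein genes and those of 2 below it. Of those 8, Cyp8b1 was not called on the deposited scale. In OC.2+ cells Cyp7a1, Cyp7b1, Cyp8b1, Cyp27a1, Amacr, Slc27a5 and Baat were near or under the array medians, where a fall can be understated. In OC.2- cells against adult hepatocytes the median of all genes became 0.33. All folds of other genes are on the deposited scale. Of 60 tests of other named genes under this centring, 13 turned sign. Without a turn of sign, 5 gained a call and 4 lost it. Lost in this way were the calls of Fgfr4 in OC.2- cells against adult hepatocytes (limma adjusted p = 0.19) and Nr5a2 between the fetal groups (0.786). The others were those of Hsd17b4 (0.637) and Scp2 (0.0899) in OC.2+ cells relative to adult hepatocytes. Among the tests that turned sign, Nr1h4 between the fetal groups also lost its call (limma adjusted p = 0.0811). Ch25h gained one there (limma adjusted p = 1.34e-10).

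Beyond the 10 genes, 13 genes of other steps of the pathway or of general support to it were measured. The support genes were Por, Cyb5a and Fdx1, which serve electron transfer, and Pex5, the peroxisomal import receptor. They are not particular to bile acid synthesis. All were called lower in both fetal groups against adult hepatocytes, and all but Fdx1 in OC.2+ against OC.2- cells, and the counts include them. Of the 13 genes, 10 fell in OC.2- cells against adult hepatocytes, while 1 rose and 2 were not called (median log2 difference -1.01). In OC.2+ cells against adult hepatocytes 10 fell and 3 were not called, and in OC.2+ against OC.2- cells 9 fell and 4 were not called (medians -2.13 and -0.74). Among all genes 20.9%, 23.4% and 18.2% were called lower in these comparisons, in that order, and 23.7%, 32.0% and 20.3% higher. Cyp39a1, which hydroxylates another oxysterol of minor routes, was at 8.38 to 8.53 in adult hepatocytes, 4.79 to 5.08 in OC.2- and 4.24 to 4.27 in OC.2+ cells, 11.2-fold lower in OC.2- cells than in adult hepatocytes. Both fetal groups were under the array medians, so this fold can be understated and the fetal groups cannot be called as expressing it. Ch25h, the cholesterol 25-hydroxylase, was 1.28-fold higher in OC.2- cells (limma adjusted p = 0.0156), at a dim 4.60 to 4.92 against 4.28 to 4.59 on adult arrays. That call ended without adult replicate 1 (limma adjusted p = 0.0713), OC.2- replicate 1 (0.0579) or OC.2- replicate 3 (0.0625), after quantile normalization (0.0672) and after median centring (0.0608). Without OC.2- replicate 2 it was called lower in the OC.2+ group relative to OC.2- cells (limma adjusted p = 0.0335). Cyp46a1, the cholesterol 24-hydroxylase known from brain, and Acot8, a peroxisomal thioesterase, were the genes of this list not called in any comparison, and are named after their values were seen.

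Named genes of ring reduction and of the import and shortening of the side chain fell as well. Slc27a2, the acyl-CoA synthetase that activates side-chain intermediates, was at 11.15 to 11.43 in adult hepatocytes, 10.06 to 10.44 in OC.2- cells and 7.15 to 7.40 in OC.2+ cells. Akr1c14, the 3-alpha hydroxysteroid dehydrogenase that acts after AKR1D1, was at 10.81 to 11.17, 9.47 to 9.99 and 6.44 to 6.58. Both showed the shape of Acox2. Slc27a2 was 2.06-fold lower in OC.2- cells than in adult hepatocytes and 7.73-fold lower in OC.2+ relative to OC.2- cells, and Akr1c14 2.36-fold and 9.21-fold. Close relatives of Akr1c14 can share probe signal. The peroxisomal transporter Abcd3 was 3.63-fold, the thiolase-carrier gene Scp2 2.84-fold and the bifunctional enzyme gene Hsd17b4 2.31-fold lower in OC.2- cells than in adult hepatocytes. In OC.2+ against OC.2- cells the same 3 genes were 2.22-fold, 2.17-fold and 2.38-fold lower.

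Of 12 measured genes of bile acid and lipid transport, 8 fell and 1 rose in OC.2- cells against adult hepatocytes. In OC.2+ cells relative to adult hepatocytes 9 fell and 1 rose, and in OC.2+ against OC.2- cells 6 fell and 6 were not called. The shares of all genes called lower were 20.9%, 23.4% and 18.2% in the same order, and those called higher 23.7%, 32.0% and 20.3%. The list includes the lipid transporters Abcb4, Abcg5, Abcg8 and Atp8b1. Against adult hepatocytes all of these fell in OC.2+ cells, and all but Atp8b1 in OC.2- cells. Only Atp8b1 of them fell between the fetal groups. The uptake carrier Slc10a1 (NTCP) was at 12.43 to 12.45 in adult hepatocytes, 9.14 to 9.54 in OC.2- cells and 6.58 to 7.12 in OC.2+ cells. The canalicular export pump Abcb11 (BSEP) was at 11.44 to 11.53, 7.62 to 8.04 and 6.11 to 6.24. Neither gene's groups overlapped. Slc10a1 was 8.86-fold and Abcb11 12.1-fold lower in OC.2- cells than in adult hepatocytes. In OC.2+ cells they were 50.1-fold and 39.4-fold lower than in adult hepatocytes. There Slc10a1 was close above the array medians and Abcb11 under them, so those folds can be understated. The organic anion carrier Slco1a4 was 33.8-fold lower in OC.2- cells than in adult hepatocytes. It was at 5.04 to 5.34 in OC.2- and 5.06 to 5.59 in OC.2+ cells, under the array medians, so the fold can be understated and a difference between the fetal groups cannot be judged (log2 difference 0.06 ± 0.13, SE, limma adjusted p = 0.783). Slco1b2, a carrier of the same family, was 6.86-fold lower in OC.2+ relative to OC.2- cells. Abcc3 (MRP3), a basolateral export pump, was the transporter that rose in both fetal groups. It was at 6.09 to 6.16 in adult hepatocytes, 7.44 to 7.64 in OC.2- and 7.03 to 7.05 in OC.2+ cells, 2.73-fold and 1.89-fold above adult hepatocytes. Its adult values lay under the array medians, so these folds can be understated.

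**Figure D4:**
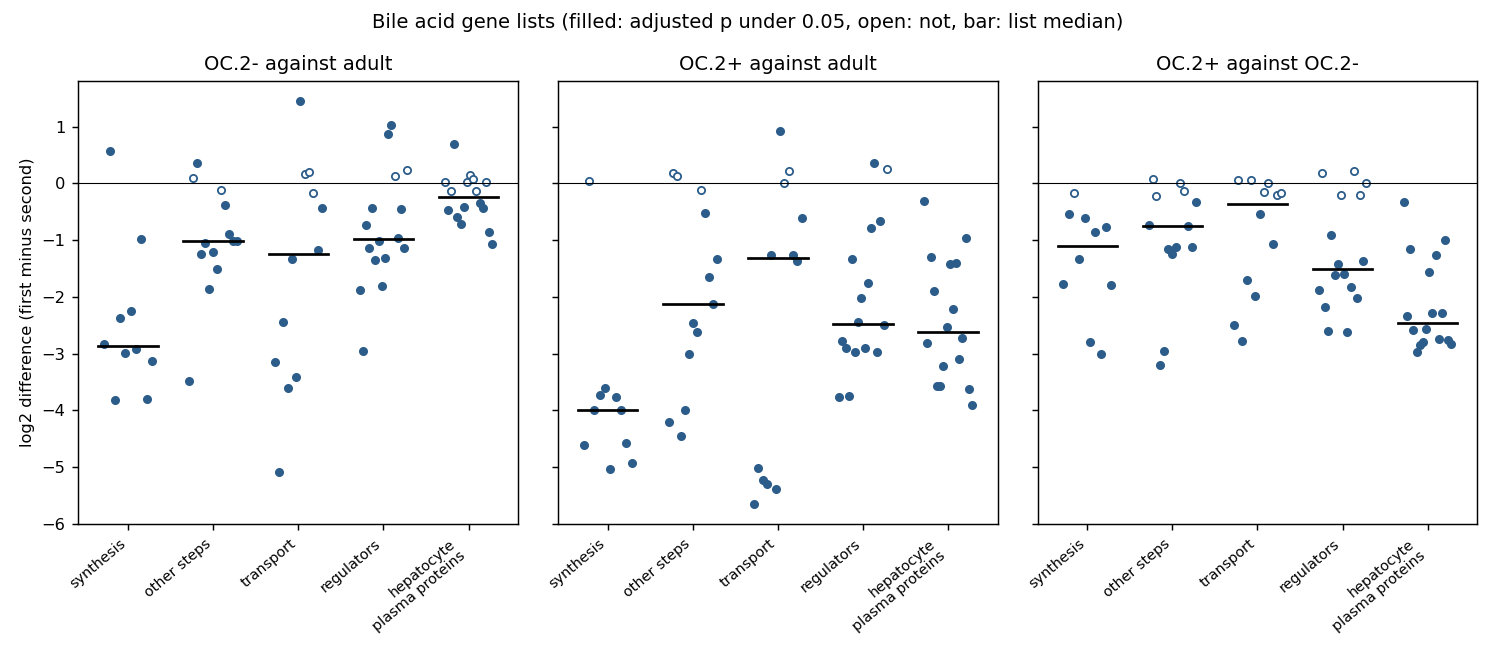
Log2 differences (y axis) of each measured gene of 5 lists in the 3 comparisons. The lists are the 10 synthesis genes, 13 of other steps and their support, 12 of bile acid and lipid transport, 16 regulators and 16 plasma protein genes of hepatocytes. Filled points passed adjusted p under 0.05 and bars are list medians. The synthesis median was -2.87 and the plasma protein median -0.24 in OC.2- cells relative to adult hepatocytes, and they were -1.10 and -2.45 in OC.2+ against OC.2- cells.

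Regulators of the pathway were measured through 16 genes, of which 12 fell and 2 rose in OC.2- cells against adult hepatocytes, 14 fell and 1 rose in OC.2+ cells relative to adult hepatocytes, and 11 fell and 5 were not called in OC.2+ against OC.2- cells. In the same order, 20.9%, 23.4% and 18.2% of all genes were called lower and 23.7%, 32.0% and 20.3% higher. Nr1h4, the bile acid receptor FXR, was at 9.17 to 9.73 in adult hepatocytes, 7.50 to 7.72 in OC.2- cells and 5.66 to 5.76 in OC.2+ cells. It was 3.69-fold lower in OC.2- cells than in adult hepatocytes and 3.68-fold lower again in OC.2+ cells. The OC.2+ values lay under the array medians, so the latter fold can be understated. That call ended, with a turn of sign, after centring on plasma protein genes (limma adjusted p = 0.0811). Nr0b2 (SHP), a repressor of Cyp7a1 that FXR induces, was at 8.46 to 8.69, 5.52 to 5.78 and 5.73 to 5.96. It was 7.79-fold lower in OC.2- cells than in adult hepatocytes, a fold that can be understated since both fetal groups lay under the array medians. Nr5a2 (LRH-1), an activator of Cyp7a1 and Cyp8b1, was 1.66-fold lower in OC.2- cells than in adult hepatocytes and 4.51-fold lower in OC.2+ relative to OC.2- cells, a call that ended after centring on plasma protein genes. Hnf4a, the hepatocyte factor that acts with it, was 2.20-fold and 6.06-fold lower in those comparisons. Fgfr4, the receptor through which gut FGF15 represses bile acid synthesis, was 1.34-fold lower in OC.2- cells than in adult hepatocytes (limma adjusted p = 0.00166), a call that ended after quantile normalization (0.206) and after centring on plasma protein genes (0.19), and 1.88-fold lower in OC.2+ relative to OC.2- cells.

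Against this direction, Ppara, the fatty acid sensor, was 1.83-fold and its coactivator gene Ppargc1a 2.05-fold higher in OC.2- cells than in adult hepatocytes. Both were lower in OC.2+ cells, by 6.15-fold and 3.54-fold against OC.2- cells. Ppargc1a lay under the array medians on all adult arrays (5.64 to 6.10) and all OC.2+ arrays, so its folds can be understated. Mafg, a repressor of bile acid genes, was 1.28-fold higher in OC.2+ cells than in adult hepatocytes (limma adjusted p = 0.00854) and not called in the other comparisons on the deposited scale. It was called higher in OC.2+ against OC.2- cells after quantile normalization (0.049) and in both of those comparisons after centring on plasma protein genes (0.0101 for OC.2- cells relative to adult hepatocytes and 1.74e-12 between the fetal groups). The array annotation used here named no single-gene probe set for Klb, the co-receptor of FGFR4.

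The nearest patterns were sought for the 4 cytochrome P450 genes, by the mean absolute difference of gene-centred log2 values over the 9 arrays. Nearest to Cyp7a1 was Baat (0.16), a gene of the same pathway, then Tmem53 (0.17) and Serpinf1 (0.18). Cyp27a1 was nearest to Nxpe4 (0.05), Palmd (0.07) and the peroxisomal bifunctional enzyme gene Ehhadh (0.09). Nearest to Cyp8b1 were Cyp4a1, a fatty acid hydroxylase (0.12), Prkaa2, a catalytic subunit of AMP-activated kinase (0.14), and Cpt1a, the gate of mitochondrial fatty acid oxidation (0.16). Cyp7b1 had Nnat (0.05), Zfp202 (0.07) and Dock6 (0.07), all within a small range of values. The 9 arrays form 3 groups, which limits what this measure can tell apart.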

How the data were processed

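RNA was isolated with the mirVana kit and 150 ng of it amplified with Affymetrix whole-transcript reagents, per the labels' protocols. The deposited values are linear intensities normalized by the authors. The submitters' processing notes name Partek 6.6 and RMA, with no role or order. RMA as usually run makes arrays alike and shrinks differences of dim genes. Genome build and probe annotation were not given in the sources used here.

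Of 28826 rows, 15209 had 1 gene symbol, 306 several and 13311 none. Of the single symbols, 15178 were found in RefSeq's table (GRCr8, names only), and 0 changed. The probe set with the highest mean stood for a gene (494 genes had several). No gene was filtered. Log2 values were fitted with group means over all 9 arrays (limma 3.58.1, R 4.3.3, 6 residual degrees of freedom) and adjusted with Benjamini and Hochberg's method. The fit was tested on simulated data. Ratios were tested by exact permutation. Genes named from the other lists were, per comparison, the called gene with the highest and the lowest difference of each list, plus 13 fixed genes, of which Klb had no probe set. The 3 nearest patterns were named for each of 4 genes. Members and lists were chosen with earlier results of these data known. Alternatives covered scaling, dim genes, probe sets, variance, arrays fitted, replicate block, threshold and each array left out.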

Additional observations from a re-analysis of the deposited data

How the results depend on the processing

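All 417 tests of the 10 genes under alternatives other than hepatocyte marker centring kept their direction and their side of the threshold, and so did all 180 of them that left out 1 array. Quantile normalization moved a gene most, Acox2 in OC.2- cells against adult hepatocytes (1.42-fold). Of the tests of other named genes, 356 of 360 with an array left out and 472 of 477 others held, and the 9 that did not were those of Ch25h, Fgfr4 and Mafg. Of these, Ch25h lost its call in OC.2- cells with 3 arrays left out in turn, with quantile normalization (adjusted p 0.0672) or median centring (0.0608) and at a threshold of 0.01 (0.0156). With dim genes left out (8609 genes kept), the count of synthesis genes higher in OC.2- cells became 0, because Cyp7b1 was the gene removed. Same-number correlations of deviations were weak (-0.226 to 0.106). Arrays that correlated best with their own number were 0, 4 and 1 of 6, in the order of the comparisons above. This does not settle whether replicate numbers pair the arrays. A replicate block gave 6199, 7777 and 5416 calls over all genes, in the order of the comparisons above, against 6458, 8034 and 5576, and changed no call of the 10 genes. Hepatocyte marker centring, which shifts whole arrays, gave 10526, 14303 and 14340 calls. It raised the share of called genes that were higher to 82.1%, 96.5% and 98.6%, from 53.1%, 57.8% and 52.8%. Under it, 1 synthesis gene (Cyp7b1) was higher when OC.2+ cells were set against adult hepatocytes, while 2 were lower and 8 higher in OC.2+ against OC.2- cells. Log2 differences that turned sign in OC.2+ cells against adult hepatocytes were Fgfr4 1.065, Ppargc1a 1.617 and Ppara 0.656. Those between the fetal groups were Cyp7a1 0.363, Cyp7b1 1.61, Cyp8b1 1.978, Cyp27a1 0.803, Hsd3b7 1.534, Amacr 1.29, Slc27a5 1.371, Baat 0.348, Hsd17b4 0.894, Scp2 1.029, Abcd3 0.992, Nr1h4 0.264, Fgfr4 1.23, Abcb11 0.442, Ch25h 1.922, Cyp39a1 1.412, Abcc3 1.611 and Ppargc1a 0.321. The shift of the arrays by construction adds the fall of the plasma protein genes to every gene. Signal near or under the array medians limits Cyp7b1 in all groups and Cyp8b1 and Slc27a5 in both fetal groups. It also limits Cyp7a1, Cyp27a1, Akr1d1, Amacr, Acox2 and Baat in OC.2+ cells. In these a fold can be understated. The same holds for Cyp39a1, Slco1a4 and Nr0b2 in both fetal groups and Ch25h in all groups. It also holds for Nr1h4, Nr5a2, Slc10a1, Abcb11, Slco1b2, Scp2, Akr1c14 and Ppargc1a in OC.2+ cells, and for Abcc3 and Ppargc1a in adult hepatocytes.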
